A study of Homo sapiens with 15 samples.

Results

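The genes of cholesterol and fatty acid synthesis were followed in H1975 lung adenocarcinoma cells and in an osimertinib-resistant derivative, H1975–OR, given vehicle, 1,25(OH)2D3, osimertinib, or both agents. They were chosen by name as 31 gene symbols, of the 19612 in the deposited table, and each of the 31 was found there and passed the filter on low counts. Total RNA was sequenced in 15 libraries, 3 for each of 5 conditions. Samples 1a to 1c were H1975 cells with vehicle and Samples 2a to 2c were H1975–OR cells with vehicle. H1975–OR cells received 100 nM 1,25(OH)2D3, the active vitamin D hormone, in Samples 3a to 3c, osimertinib, an inhibitor of mutant EGFR, in Samples 4a to 4c, and both agents in Samples 5a to 5c. For vehicle and 1,25(OH)2D3, the study's methods give 3 separate passages of cells and 96 h of treatment with doses at 0, 48, and 92 h. They give 500 nM for osimertinib in these cells, and do not restate the passages and times for Samples 4a to 5c. Both lines carry the EGFR alleles T790M and L858R. H1975–OR was obtained from H1975 by long culture in 500 nM osimertinib and was routinely kept in the drug, so that its vehicle samples were cells without it during the treatment. A single resistant line cannot stand for resistance in general. Treatments were given in medium with charcoal-stripped serum.

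Cholesterol is built from acetyl-CoA through mevalonate, squalene, and lanosterol, and fatty acids are built from the same precursor by acetyl-CoA carboxylase and fatty acid synthase before elongases and desaturases modify them. The sterol regulatory element-binding proteins SREBP-1 and SREBP-2, encoded by SREBF1 and SREBF2, are membrane-bound transcription factors of the endoplasmic reticulum. When sterols are low, the escort protein SCAP carries them to the Golgi, where proteases free the part that enters the nucleus. INSIG1 and INSIG2 hold SCAP back when sterols are plentiful. The pathway is best known from liver, and proliferating tumor cells also draw on it for membranes. All values below are transcript levels, and neither lipids nor the cleaved SREBP proteins were measured in these libraries.

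The 250 bases before the start of 6 members are shown because these genes include both SREBP genes, whose own levels stood out below, and members that changed or had separated groups in the comparisons. They were taken from RefSeq, build GRCh38.p14, and run 5′ to 3′. Capitals mark 3 motifs on either strand, the sterol regulatory element TCACNCCAC, the CCAAT box, read as ATTGG on the other strand, and the E-box CACGTG.
SREBF2 (chr22:41832855-41833104, plus strand): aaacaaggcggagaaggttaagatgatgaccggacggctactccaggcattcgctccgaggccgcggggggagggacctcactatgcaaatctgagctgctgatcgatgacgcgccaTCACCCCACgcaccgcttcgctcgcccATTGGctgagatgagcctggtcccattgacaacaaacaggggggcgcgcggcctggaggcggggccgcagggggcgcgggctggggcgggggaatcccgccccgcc
SREBF1 (chr17:17836987-17837236, minus strand): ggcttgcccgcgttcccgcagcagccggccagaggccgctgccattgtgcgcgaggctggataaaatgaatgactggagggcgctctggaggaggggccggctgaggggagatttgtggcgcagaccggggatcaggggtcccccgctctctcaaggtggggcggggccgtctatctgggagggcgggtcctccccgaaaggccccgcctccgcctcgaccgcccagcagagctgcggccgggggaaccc
SC5D (chr11:121292521-121292770, plus strand): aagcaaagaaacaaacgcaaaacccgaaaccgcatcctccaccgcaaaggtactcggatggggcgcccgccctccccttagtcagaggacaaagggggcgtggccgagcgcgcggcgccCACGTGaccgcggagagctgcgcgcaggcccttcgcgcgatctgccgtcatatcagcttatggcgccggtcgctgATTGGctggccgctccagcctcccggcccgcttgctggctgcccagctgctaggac
STARD4 (chr5:111512536-111512785, minus strand): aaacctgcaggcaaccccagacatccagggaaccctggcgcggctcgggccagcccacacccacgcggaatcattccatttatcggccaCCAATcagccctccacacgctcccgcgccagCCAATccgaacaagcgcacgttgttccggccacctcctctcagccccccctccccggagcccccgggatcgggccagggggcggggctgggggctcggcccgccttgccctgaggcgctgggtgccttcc
SCD (chr10:100346983-100347232, plus strand): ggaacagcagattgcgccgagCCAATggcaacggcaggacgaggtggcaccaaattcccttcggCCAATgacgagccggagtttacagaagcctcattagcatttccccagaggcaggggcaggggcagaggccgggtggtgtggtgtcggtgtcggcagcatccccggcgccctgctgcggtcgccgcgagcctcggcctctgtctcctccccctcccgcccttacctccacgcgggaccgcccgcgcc
EBP (chrX:48521558-48521807, plus strand): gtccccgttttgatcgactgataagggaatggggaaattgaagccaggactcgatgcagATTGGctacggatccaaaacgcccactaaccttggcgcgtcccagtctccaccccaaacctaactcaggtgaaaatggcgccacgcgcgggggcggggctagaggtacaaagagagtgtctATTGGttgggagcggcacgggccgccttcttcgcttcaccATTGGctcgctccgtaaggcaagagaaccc
Of the 31 members, 27 had a promoter in the table, and ACAT2, FASN, FDFT1, and SQLE did not. The first listed start of each gene was used, and 8 of the 27 had more than 1. The sterol regulatory element in the exact form TCACNCCAC was found in 1 of the 27 members (3.7%), SREBF2, where TCACCCCAC lay 133 to 125 bases before the start. The same window held that form in 0.875% of all 27305 genes of the table. Elements that differ from these letters were not searched, so a window without a match may still hold one. A CCAAT box was found in 17 members (63.0%), against 33.0% of all genes and 34.8% of the 9892 tested genes with a promoter. The windows of SREBF1, FADS2, IDI1, ELOVL6, ACACA, CYP51A1, FADS1, INSIG2, PMVK, and SCAP had none. That of EBP had 3, and those of MVK and NSDHL had 5 each. GGGCGG, the GC box bound by Sp1-type factors, was found on either strand in 25 members (92.6%), against 42.3% of all genes and 67.5% of those tested. CACGTG was found in SC5D, INSIG1, and SCAP, 11.1% of the members, against 6.49% of all genes and 8.89% of those tested. Different motifs did not overlap one another in any member. These matches describe letters, and binding at them was not measured.

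Estimated counts summed to between 4378030 and 6140120 per library, and the members together took between 0.196% and 0.391% of them. Levels are given as counts per 1000000 (CPM) of a library's total after TMM scaling. CPM are not scaled for gene length, and so are compared between libraries and not between genes. Sample 3a, which the study left out as atypical, was left out of the tests here too, and its values are given where they matter. The target of 1,25(OH)2D3 CYP24A1 stood at 675.7 CPM or more in each of the 6 libraries with the hormone and at 9.12 CPM or less in the other H1975–OR libraries. Of 6 epithelial markers, keratins 8 and 18 were at 303 CPM or more in every library. The others, CDH1, EPCAM, KRT7, and KRT19, were lower in vehicle-treated H1975–OR than in H1975, as given below. The lung lineage factor NKX2-1 was present at 31.9 to 98.9 CPM, and the secretory markers NAPSA, SFTPB, SFTPC, and SCGB1A1 were at 2.25 CPM or less. Of 8 markers of leukocytes, endothelium, red cells, and fibroblasts, CD3E was at 0 in every library, CD68 lay between 4.71 and 38.6 CPM, LUM reached 14.02 CPM, and the other 5 were at 4.19 CPM or less. In these bulk libraries, a change in the share of cells that express a gene and a change in RNA per cell cannot be told apart.

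**Figure D1:**
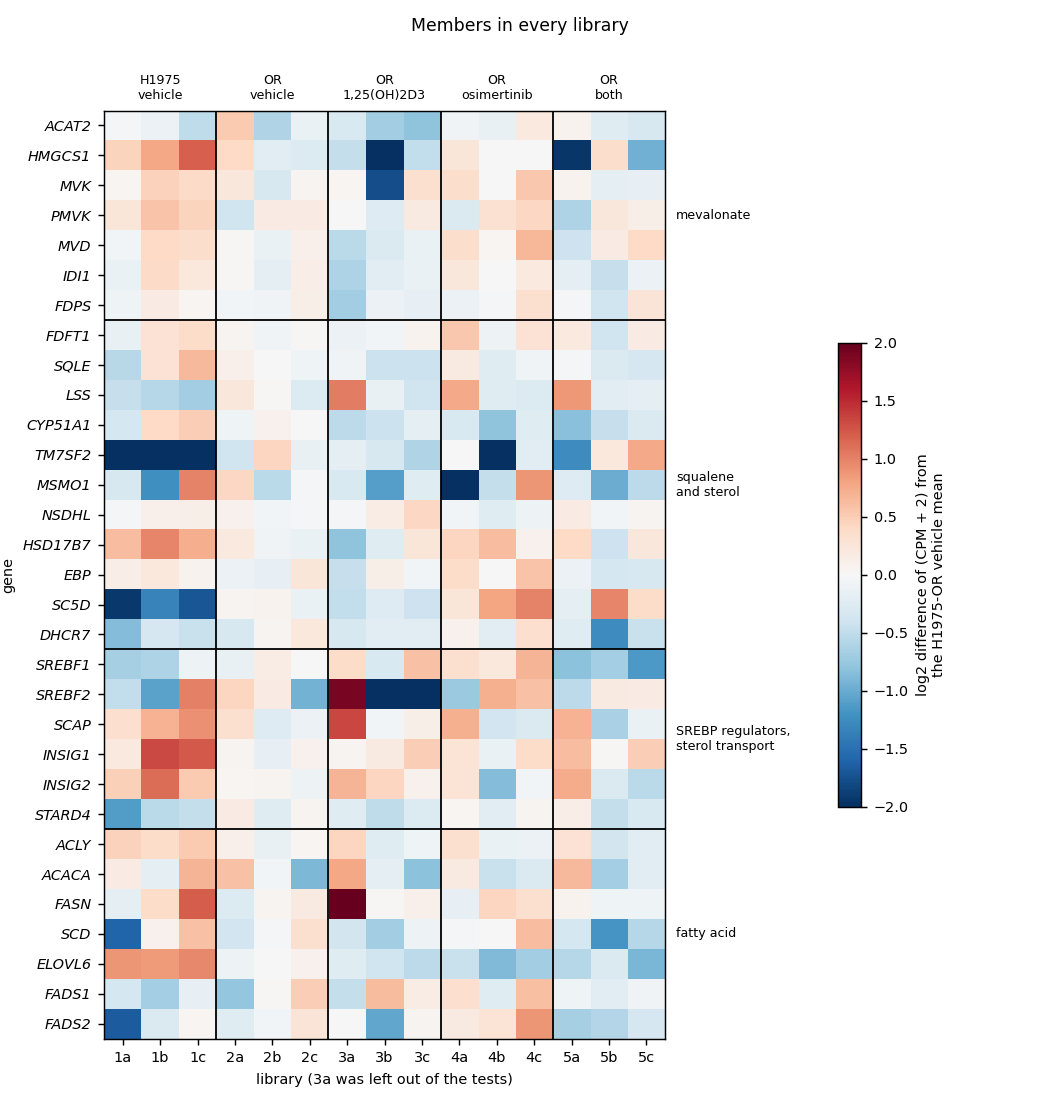
Each cell of the heat map gives the log2 difference of a member's CPM + 2 in 1 library from the mean of the 3 vehicle-treated H1975–OR libraries, with the 31 genes in rows by role, libraries in columns by condition, and colors limited to between -2 and 2. SC5D and TM7SF2 were lower and ELOVL6 higher in all 3 H1975 libraries, SREBF1 was lower in all 3 libraries with both agents, and SREBF2 was low in Samples 3b and 3c and high in 3a.

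The first comparison asked how the resistant line differed from its parent without drug. In vehicle-treated H1975–OR cells, 4 of the 31 members were higher than in H1975 (SC5D, TM7SF2, STARD4, and LSS) and 3 were lower (ELOVL6, INSIG1, and ACLY). The changed members were of mixed roles, with late sterol enzymes among the higher and fatty acid genes among the lower ones. These 7 of 31 stand beside a background of 20.1% of all 12513 genes tested, 9.89% higher and 10.3% lower, so that the share of members that changed was near that of all genes. Irrespective of the test, 10 members were higher and 21 lower, with a median log2 fold change of -0.16 against 0.01 over all genes.

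SC5D, the sterol C5 desaturase that acts near the end of cholesterol synthesis, showed the smallest adjusted p of the members. Its levels were 37.0, 57.0, and 43.5 CPM in Samples 1a to 1c and 152.8, 155.6, and 133.8 CPM in Samples 2a to 2c. Every H1975–OR library was thus far above every H1975 library, and SC5D rose 3.25-fold (log2 fold change 1.70 ± 0.17 SE, edgeR adjusted p = 0.00058). TM7SF2, a sterol C14 reductase, had 0, 4, and 4 counts in H1975 and 38, 74, and 50 counts in H1975–OR. In CPM these were 0, 0.728, and 0.813 against 7.76, 15.3, and 9.63, where 3 counts are worth 0.519 CPM in Sample 1a. The gene was near its detection limit in the parental line and clearly present in the resistant one. Its log2 fold change of 4.39 ± 0.74 SE (edgeR adjusted p = 0.0052) rests on few counts in H1975. LBR encodes the other sterol C14 reductase, along with a nuclear lamina function, and belonged to the further pathway genes rather than the members. It moved the opposite way, at 124.5, 131.4, and 136.5 CPM in H1975 and 66.0, 56.8, and 57.4 CPM in H1975–OR (log2 fold change -1.11 ± 0.11 SE, edgeR adjusted p = 0.00069). Hence transcripts for the same enzymatic step differed in opposite directions between the lines.

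LSS, which closes squalene epoxide into lanosterol, was at 66.2, 60.6, and 55.5 CPM in H1975 and at 106.9, 92.5, and 74.9 CPM in H1975–OR. The groups did not overlap, and LSS rose 1.52-fold (log2 fold change 0.60 ± 0.16 SE, edgeR adjusted p = 0.0312). STARD4, a carrier that moves cholesterol between membranes, was at 27.2, 41.5, and 43.3 CPM against 68.6, 51.4, and 63.3 CPM. Here too all H1975–OR libraries were above all H1975 libraries, by 1.66-fold on the fitted scale (log2 fold change 0.73 ± 0.20 SE, edgeR adjusted p = 0.0379). DHCR7, the last reductase of cholesterol synthesis, was at 36.7, 54.1, and 49.6 CPM in H1975 and 54.6, 71.3, and 79.9 CPM in H1975–OR. Its groups only just separated, with a log2 fold change of 0.57 ± 0.19 SE (edgeR adjusted p = 0.0667). SQLE, which oxidizes squalene, was at 42.2, 77.4, and 98.9 CPM against 67.0, 62.2, and 58.7 CPM, with overlapping groups and an adjusted p of 0.634 by edgeR.

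ELOVL6, the elongase that extends palmitate, was the most clearly lower member in H1975–OR. It stood at 120.2, 116.5, and 126.6 CPM in H1975 and at 59.5, 64.5, and 68.2 CPM in H1975–OR. The libraries of each line were close to each other and the lines were well apart, so that ELOVL6 fell by 0.90 on the log2 scale (SE 0.11, edgeR adjusted p = 0.00154). ACLY, which makes cytosolic acetyl-CoA from citrate, was at 368.1, 343.2, and 384.6 CPM against 286.9, 240.3, and 272.8 CPM. That was a smaller step, again without overlap, of -0.44 ± 0.11 SE in log2 fold change (edgeR adjusted p = 0.0232). FASN, fatty acid synthase, was at 87.2, 128.2, and 233.3 CPM against 81.5, 102.9, and 112.8 CPM, and SCD, the stearoyl-CoA desaturase, at 287.5, 934.7, and 1321 CPM against 674.6, 858.2, and 1096 CPM. Both genes varied more between the H1975 libraries than between the lines, with edgeR adjusted p of 0.231 and 0.938.

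Of the regulators, INSIG1, which retains SCAP in the endoplasmic reticulum, was at 66.1, 146.7, and 136.5 CPM in H1975 and at 59.9, 51.2, and 61.0 CPM in H1975–OR. Sample 1a lay near the resistant line and the other two parental libraries far above it. INSIG1 fell by 1.00 on the log2 scale (SE 0.27, edgeR adjusted p = 0.0336). SCAP and INSIG2 were also lower in every H1975–OR library than in any H1975 library, with log2 fold changes of -0.68 ± 0.21 SE and -0.84 ± 0.27 SE. Neither passed the threshold, at edgeR adjusted p of 0.0502 and 0.0639. SREBF1 was at 41.3, 43.1, and 62.0 CPM against 60.1, 74.4, and 66.4 CPM, and SREBF2 at 32.2, 20.9, and 94.5 CPM against 63.1, 52.1, and 23.1 CPM. The SREBF1 groups touched and the SREBF2 groups were spread over one another (edgeR adjusted p = 0.221 and 0.94). Without overlap between the lines were 5 members above, against 19% of all genes, and 8 below, against 20.3%, and 11 members had an unadjusted p under 0.05, against 34.6%.

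None of the 7 mevalonate genes passed the test between the lines, although 6 of them had a negative log2 fold change. HMGCS1, which makes HMG-CoA, ranged from 72.3 to 123.7 CPM in H1975 and from 43.1 to 69.9 CPM in H1975–OR (log2 fold change -0.85, 95% interval -2.33 to 0.63, edgeR adjusted p = 0.397). The lines' HMGCS1 values were separated by a small gap and its libraries were widely scattered. The other mevalonate genes had log2 fold changes between -0.44 (PMVK, mevalonate phosphate kinase) and 0.25 (ACAT2, which condenses acetyl-CoA). Of the remaining sterol genes, HSD17B7, a ketosteroid reductase of the pathway, was at 8.19 CPM or less throughout and reached -1.10 (edgeR adjusted p = 0.0927).

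SC5D, TM7SF2, and ELOVL6 stayed under the threshold in each alternative that could be run, and the other 4 calls did not. Leaving out single libraries gave edgeR adjusted p for LSS of 0.0993 without Sample 1b, 0.103 without 1c, 0.0699 without 2a, and 0.0883 without 2b. For STARD4 they were 0.0806 without 1a, 0.0774 without 1b, 0.0549 without 1c, 0.0869 without 2a, and 0.0944 without 2c. For INSIG1 they were 0.11 without 1b, 0.0981 without 1c, 0.0547 without 2a, 0.11 without 2b, and 0.0753 without 2c. For ACLY they were 0.0602 without 1c, 0.0871 without 2b, and 0.0576 without 2c. The directions of all 4 were kept. Among these fits, SCAP came under the threshold without 1a (edgeR adjusted p = 0.0318) or 2a (0.0152), and DHCR7 without 2a (0.029). Over all 14 alternatives, ACLY was under the threshold in 9, INSIG1 in 8, and LSS and STARD4 in 7 each. Of the members not called, SCAP was under it in 6, DHCR7 in 3, and HSD17B7 in 1.

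**Figure D2:**
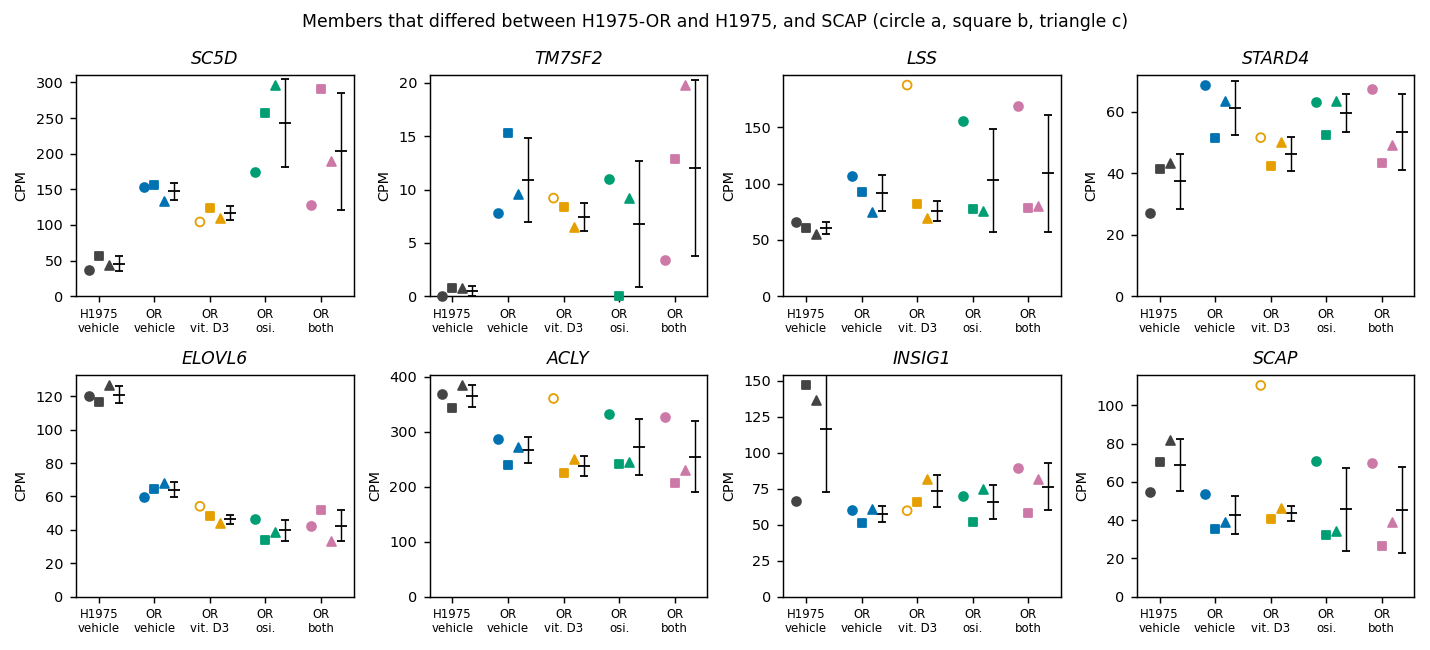
Points give CPM of 8 members in every library by condition, on linear axes from 0, with circles, squares, and triangles for letters a, b, and c, the open circle for Sample 3a, and bars for the mean ± SD without it (n = 3, or 2 with 1,25(OH)2D3). The H1975–OR vehicle libraries lay above the H1975 libraries for SC5D, TM7SF2, LSS, and STARD4 and below them for ELOVL6, ACLY, INSIG1, and SCAP, and the circles stood apart for LSS, SCAP, and ACLY in treated H1975–OR.

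Other genes of lipid handling gave a similarly mixed picture between the lines. Of 26 further pathway genes tested, 3 rose and 1 fell, where 20.1% of all genes passed by edgeR and 24.3% by DESeq2. MBTPS1, the protease that makes the first cut in SREBP, rose by 0.59 on the log2 scale (edgeR adjusted p = 0.00433), HSD17B12, a reductase of fatty acid elongation, by 0.73 (0.00717), and PANK3, a pantothenate kinase of coenzyme A synthesis, by 0.36 (0.0467). The gene that fell was LBR. Among 9 tested genes of sterol efflux, storage, and lysosomal export, NPC1, NPC2, and SOAT1 fell and MYLIP rose, and ABCA1, the cholesterol efflux pump, passed by DESeq2 only (log2 fold change -0.86 by edgeR, adjusted p = 0.098). NPC2, which passes cholesterol out of lysosomes together with NPC1, was at 174.0, 272.5, and 319.2 CPM in H1975 and 60.5, 51.0, and 46.0 CPM in H1975–OR (log2 fold change -2.26 ± 0.22 SE, edgeR adjusted p = 0.000572). Its levels in the resistant line were far below those in the parental one. NPC1 fell by 1.23 and SOAT1, which esterifies cholesterol for storage, by 0.60, while MYLIP, a ubiquitin ligase induced by LXR, rose by 0.77 (edgeR adjusted p = 0.00435, 0.0128, and 0.0155). None of 9 tested fatty acid oxidation genes passed edgeR's test, and 1, CPT1A, passed by DESeq2. At an unadjusted p under 0.05 were 3 of the 9, against 34.6% of all genes. Beside these differences, 5 of 6 proliferation genes fell, and their summed level was 1887 to 2144 CPM in H1975 and 515 to 901 CPM in vehicle-treated H1975–OR. Of the 6 epithelial markers, CDH1, EPCAM, KRT7, and KRT19 fell and KRT18 rose (log2 fold change 0.38). The log2 fold changes of the 6 ran from -5.11 to 0.38, with a median of -1.60. The summed level of the list was 4560 to 5875 CPM in H1975 and 3535 to 3897 CPM in vehicle-treated H1975–OR. Of 3 mesenchymal markers tested, ZEB1 rose by 3.02 on the log2 scale and FN1 fell by 3.65. The third, VIM, was higher by 0.51 and passed by DESeq2 only. The summed level of the list was 3156 to 3544 CPM in H1975 against 2982 to 4269 CPM in vehicle-treated H1975–OR. Of 2 tested markers of other cells, the macrophage marker CD68 fell by 1.18 on the log2 scale, at 23.8 to 38.6 CPM against 12.8 to 16.2 CPM. The part of these proliferation and cell type genes in the lipid gene results was not tested.

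The second comparison asked what 1,25(OH)2D3 did in H1975–OR cells without osimertinib. None of the 31 members passed edgeR's test, where the background was 0.152% of all genes. By DESeq2, 1 member passed, SREBF2, against 0.991% of all genes. At an unadjusted p under 0.05 there were 2 members, SREBF2 and ELOVL6, both lower, against 7.27% of all genes. Of the 31, 21 had a negative log2 fold change, including all 7 mevalonate genes, with a median of -0.23 against -0.01 over all genes. The 2 hormone libraries lay above the 3 vehicle libraries for 3 members, against 13.2% of all genes, and below them for 9, against 12.2%.

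SREBF2, which encodes the SREBP most tied to cholesterol synthesis, was at 63.1, 52.1, and 23.1 CPM with vehicle and at 4.72 and 7.05 CPM in Samples 3b and 3c. Sample 3a, the third library of that condition, had 177.7 CPM, the highest SREBF2 level of the 15 libraries. The condition thus held both the lowest and the highest SREBF2 values of the series. Without 3a the log2 fold change was -2.95 ± 0.74 SE (edgeR adjusted p = 0.351, and DESeq2 adjusted p = 0.000659), and with 3a kept in it was 0.48 (edgeR adjusted p = 0.938). In counts, the SREBF2 values with the hormone were 1120, 22, and 38. ELOVL6 was at 48.3 and 44.2 CPM in 3b and 3c and 54.1 CPM in 3a, each below the lowest vehicle library at 59.5 CPM (log2 fold change -0.47 ± 0.13 SE, edgeR adjusted p = 0.445).

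HMGCS1 was scattered in another way, with Sample 3b apart at 1.93 CPM (9 counts) and 3c and 3a close together at 36.9 and 37.1 CPM. With vehicle HMGCS1 was at 43.1 to 69.9 CPM (log2 fold change without 3a -1.42 ± 0.79 SE, edgeR adjusted p = 0.764). Sample 3b was also the lowest library of the condition for MVK, mevalonate kinase, at 2.15 CPM against 15.8 CPM in 3c and 12.5 CPM in 3a. No other library was as low for either mevalonate gene. SREBF1 was at 53.9 and 101.2 CPM in 3b and 3c, on either side of the 60.1 to 74.4 CPM with vehicle, and at 86.5 CPM in 3a. INSIG1 was at 65.4 and 81.5 CPM in 3b and 3c, above the vehicle libraries, and at 59.7 CPM in 3a, within them. SQLE stood at 46.1 and 46.0 CPM in 3b and 3c against 58.7 to 67.0 CPM with vehicle, and at 59.8 CPM in 3a, within that range. DHCR7 was within its vehicle range at 59.0 and 58.1 CPM in 3b and 3c, and at its lower edge at 54.6 CPM in 3a. FASN was at 101.3 and 106.7 CPM in 3b and 3c, within its vehicle range, and at 399.8 CPM in 3a. ACLY in 3b and 3c was at 224.5 and 250.04 CPM and SCD at 540.5 and 814.3 CPM, which overlapped vehicle for both genes, and Sample 3a had 360.8 CPM of ACLY, above vehicle, and 676.7 CPM of SCD. Among the other lists, no gene of the further pathway, efflux, or oxidation genes passed edgeR's test, and none passed by DESeq2. Of 26, 9, and 9 tested, 1, 2, and 0 had an unadjusted p under 0.05, against 7.27% of all genes.

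The third comparison put osimertinib against vehicle in H1975–OR. Again none of the 31 members passed edgeR's test, against 0.048% of all 12503 genes, and none passed by DESeq2, against 0.936%. At an unadjusted p under 0.05 stood 2 members, ELOVL6 lower and SC5D higher, against 7.53% of all genes. Of the 31, 21 were higher and 10 lower, with a median log2 fold change of 0.16 against 0.01 over all genes. Libraries did not overlap for 2 members above, against 5.96% of all genes, and 3 below, against 6.81%. These cells had been selected in osimertinib, and the MAPK target DUSP6 was at 4.56, 4.09, and 9.19 CPM with the drug and 3.88, 18.6, and 27.5 CPM with vehicle.

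SC5D was at 174.8, 256.5, and 296.2 CPM with osimertinib, all above the 133.8 to 155.6 CPM with vehicle (log2 fold change 0.72 ± 0.27 SE, edgeR adjusted p = 0.557). ELOVL6 was at 46.6, 33.7, and 38.8 CPM, all below vehicle (log2 fold change -0.68 ± 0.18 SE, edgeR adjusted p = 0.356). The fit with the letters as a block gave edgeR adjusted p of 0.216 for SC5D and 0.157 for ELOVL6. For both genes the osimertinib libraries thus lay outside the vehicle range and, from H1975 through vehicle-treated H1975–OR to osimertinib, SC5D values were successively higher and ELOVL6 values successively lower. SREBF1 was at 83.8, 78.1, and 108.7 CPM, each above the vehicle maximum of 74.4 CPM, with a log2 fold change of 0.43 ± 0.23 SE (edgeR adjusted p = 0.747). SREBF2 was at 26.6, 76.9, and 69.9 CPM and INSIG1 at 69.7, 52.2, and 74.8 CPM, and both overlapped vehicle. ACLY (331.8, 241.9, and 245.1 CPM), SCD (858.3, 882.9, and 1344 CPM), and FASN (88.2, 134.2, and 123.6 CPM) overlapped vehicle too. So did SQLE (71.4, 52.6, and 59.9 CPM) and DHCR7 (72.6, 58.9, and 87.4 CPM). TM7SF2 had 58, 0, and 45 counts with osimertinib, so that Sample 4b had none of a gene present in every other H1975–OR library.

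With both agents compared with osimertinib alone, the question was what 1,25(OH)2D3 added to the drug. The members did not pass edgeR's test here, against a background of 0.096% of all genes. By DESeq2 1 passed, SREBF1, against 0.528% of all genes. Of the 31 members, 24 were lower with both agents and 7 higher, with a median log2 fold change of -0.26 against 0.00294 over all genes. The 6 members with an unadjusted p under 0.05 were all lower, namely SREBF1, FADS2, SCD, EBP, IDI1, and DHCR7, against 4.16% of all genes. These same 6 were the members whose libraries did not overlap, 6 below, against 4.13% of all genes, and 0 above, against 3.82%.

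SREBF1 encodes the SREBP most tied to fatty acid synthesis, and its locus spans chr17:17810399-17837002 on the minus strand of GRCh38. It was at 83.8, 78.1, and 108.7 CPM with osimertinib and at 36.8, 40.8, and 29.2 CPM with both agents. Every library with both agents was below every other library of the series, the lowest of which was Sample 1a at 41.3 CPM. The log2 fold change was -1.35 ± 0.24 SE (95% interval -1.88 to -0.82) (edgeR adjusted p = 0.155). DESeq2 gave an adjusted p of 0.000207, and over 14 alternatives the adjusted p ranged from 0.000207 to 0.476. With the letters as a block, which the samples of this comparison were found to share, the value was -1.32 (edgeR adjusted p = 0.100).

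FADS2, the delta-6 desaturase of polyunsaturated fatty acids, was at 23.2, 24.7, and 38.8 CPM with osimertinib and 12.0, 12.7, and 15.6 CPM with both agents. SCD, which makes monounsaturated fatty acids, was at 858.3, 882.9, and 1344 CPM against 688.0, 386.9, and 590.3 CPM. Both desaturases were lower with both agents in every library, with log2 fold changes of -1.12 ± 0.33 SE and -0.90 ± 0.27 SE (edgeR adjusted p = 0.742 for each). With the letters as a block, the edgeR adjusted p was 0.133 for FADS2 and 0.204 for SCD. Other fatty acid genes overlapped. FASN was at 103.9, 93.4, and 93.1 CPM with both agents (log2 fold change -0.26, 95% interval -0.64 to 0.12), and ACLY at 327.6, 207.1, and 230.2 CPM (-0.11, -0.53 to 0.31). ACACA, acetyl-CoA carboxylase, ranged from 89.2 to 228.1 CPM, and ELOVL6 from 33.2 to 52.1 CPM, near its osimertinib range of 33.7 to 46.6 CPM.

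Of the sterol genes, EBP, the sterol isomerase, was at 35.5, 27.0, and 41.3 CPM with osimertinib and 24.8, 20.9, and 21.4 CPM with both agents (log2 fold change -0.64 ± 0.20 SE, edgeR adjusted p = 0.851). DHCR7 was at 72.6, 58.9, and 87.4 CPM against 57.7, 27.5, and 49.96 CPM (-0.70 ± 0.26 SE, adjusted p = 1). IDI1, the isopentenyl diphosphate isomerase, was at 70.7, 60.1, and 69.05 CPM against 52.5, 43.0, and 54.9 CPM (-0.42 ± 0.14 SE, adjusted p = 0.967). In all 3 genes the groups were separate by narrow margins. Blocked by letter, their edgeR adjusted p was 0.400 for EBP, 0.467 for DHCR7, and 0.199 for IDI1. SQLE overlapped, at 60.9, 51.2, and 49.5 CPM with both agents. SREBF2 was at 31.6, 52.6, and 51.8 CPM and INSIG1 at 89.3, 58.2, and 81.5 CPM, both within or across their osimertinib values. HMGCS1 was at 12.2, 67.8, and 26.2 CPM with both agents, a scatter that covered the 52.7 to 62.5 CPM with osimertinib. All 7 mevalonate genes had a negative log2 fold change, between -0.68 and -0.11, and IDI1 alone had an unadjusted p under 0.05. Taken letter by letter, 11 members were lower with both agents in each of the 3 pairs, against 16.2% of all genes, and 3 were higher in each, against 17.1%.

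**Figure D3:**
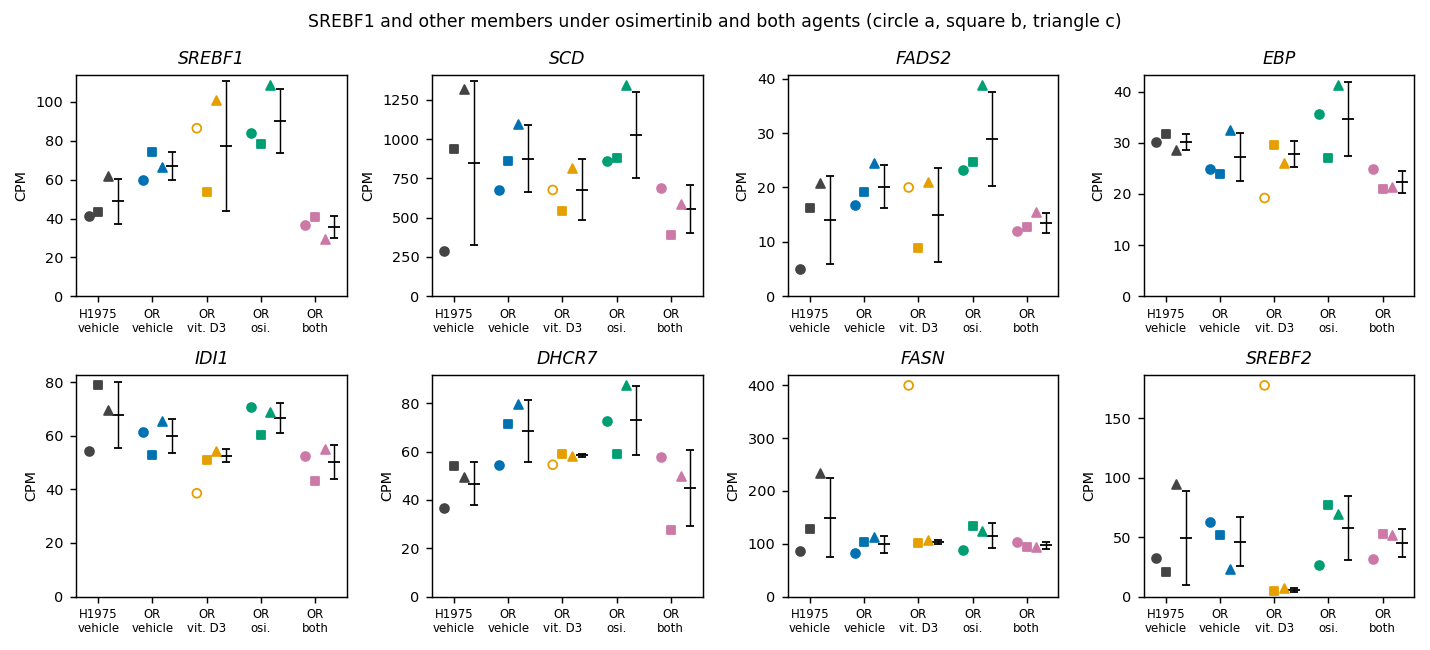
Points give CPM of 8 members in every library by condition, on linear axes from 0, with circles, squares, and triangles for letters a, b, and c, the open circle for Sample 3a, and bars for the mean ± SD without it (n = 3, or 2 with 1,25(OH)2D3). With both agents SREBF1 lay between 29.2 and 40.8 CPM, under all other libraries, and SCD, FADS2, EBP, IDI1, and DHCR7 lay under their osimertinib values, while SREBF2 in Sample 3a stood at 177.7 CPM and in Samples 3b and 3c at 4.72 and 7.05 CPM.

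Against vehicle, both agents together again gave no member under the threshold by edgeR, where 0.496% of all genes passed. By DESeq2 1 passed, SREBF1, against 2.91% of all genes. These vehicle and osimertinib libraries also served the comparisons above, so that the results share samples. The 5 members at an unadjusted p under 0.05 were all lower, with SREBF1, ELOVL6, SCD, CYP51A1, and DHCR7, against 12.5% of all genes. SREBF1 fell outside the vehicle range in every library, with a log2 fold change of -0.91 ± 0.24 SE (edgeR adjusted p = 0.161, DESeq2 adjusted p = 0.0243, and edgeR adjusted p = 0.0776 with the letters as a block). ELOVL6 had -0.60 ± 0.18 SE (edgeR adjusted p = 0.224) and SCD -0.66 ± 0.27 SE (0.357). CYP51A1, the lanosterol demethylase, was at 43.7, 49.6, and 46.8 CPM with vehicle and at 25.2, 33.3, and 37.9 CPM with both agents (-0.54 ± 0.20 SE, edgeR adjusted p = 0.306). The block by letter gave edgeR adjusted p of 0.107 for ELOVL6, 0.112 for SCD, 0.141 for CYP51A1, and 0.188 for DHCR7. Groups did not overlap for 4 members, each below, against 8.25% of all genes, and for 0 above, against 8.08%. Irrespective of the test, 20 members were lower and 11 higher, with a median log2 fold change of -0.07 against 0.00121 over all genes.

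No further pathway, efflux, or oxidation gene passed edgeR's test in the 3 comparisons with osimertinib or both agents. Of 27, 8, and 10 tested, 2, 0, and 2 had an unadjusted p under 0.05 for osimertinib against vehicle, against 7.53% of all genes. There were 1, 1, and 0 for both agents against osimertinib (4.16% of all genes), and 2, 2, and 3 for both agents against vehicle (12.5%). By DESeq2, 2 oxidation genes passed in the last of these comparisons, where 2.91% of all genes did. They were ACADM, a mitochondrial acyl-CoA dehydrogenase, and PPARGC1A, a coactivator of mitochondrial genes. The summed proliferation genes were at 758 to 979 CPM with osimertinib and 589 to 863 CPM with both agents, and their part in the lower lipid genes was not tested.

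Whether the 1,25(OH)2D3 effect differed with osimertinib was tested as the difference of the 2 effects. No gene of the whole table passed edgeR's test (0%), 2.64% had an unadjusted p under 0.05, and 11 genes passed by DESeq2, none of them a member. The members with an unadjusted p under 0.05 were SREBF1 and SREBF2. The SREBF1 effect was 0.21 without the drug and -1.35 with it, a difference of -1.56 ± 0.35 SE (edgeR adjusted p = 0.932) that ranged from -1.95 to -1.04 over 19 alternatives. For SREBF2 the effect was -2.95 without the drug and -0.36 with it, a difference of 2.60 ± 0.71 SE (edgeR adjusted p = 1) that turned to -0.82 with Sample 3a kept in. A differing hormone effect was thus not established for either gene.

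**Figure D4:**
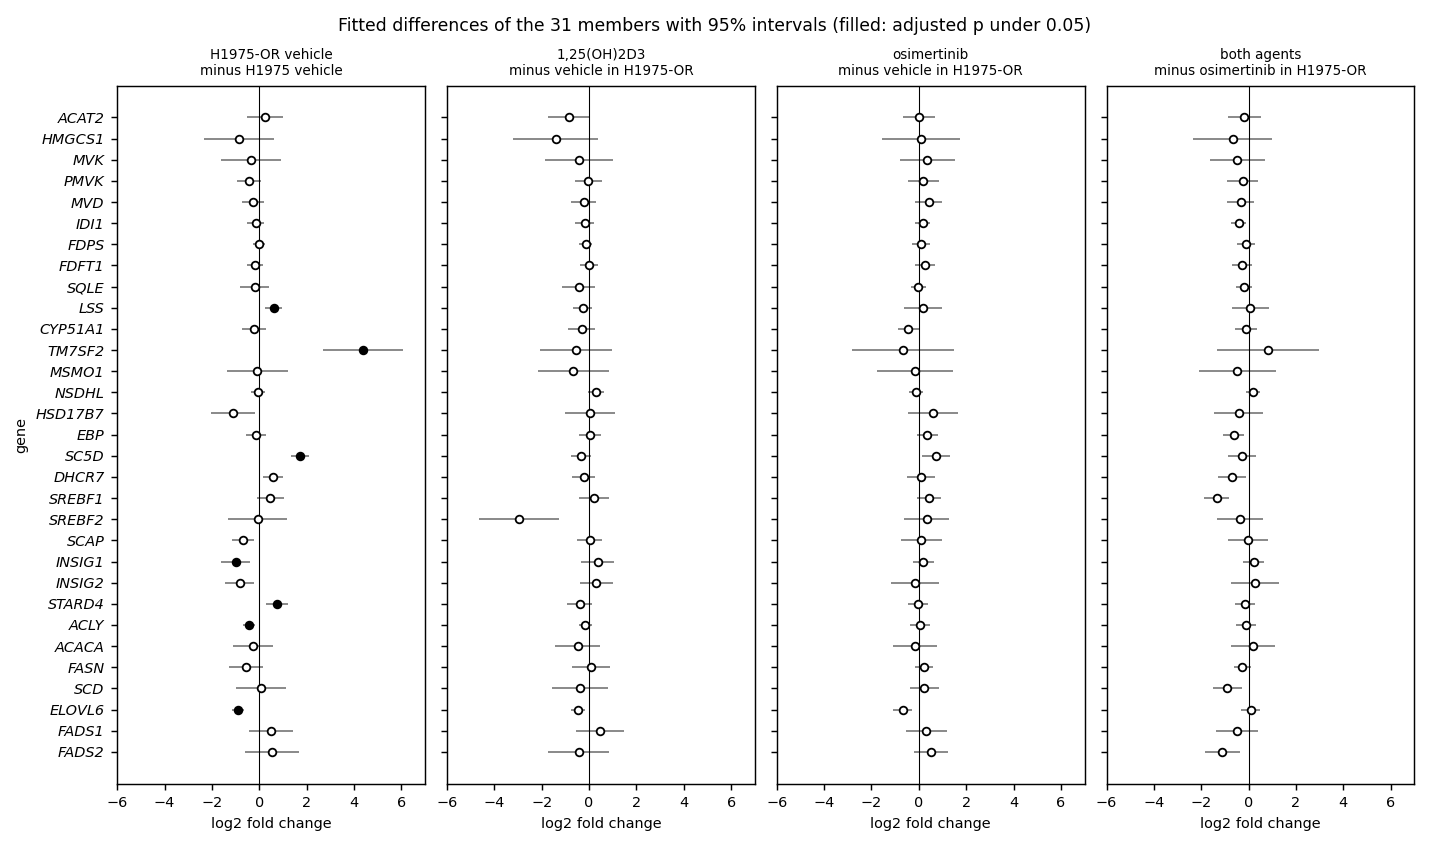
Points give the fitted log2 fold change of the 31 members in 4 comparisons with 95% intervals, and filled points mark an edgeR adjusted p under 0.05. Filled points occur only between the lines, where 4 members were higher and 3 lower, and SREBF1 lay farthest below 0 of the members with both agents against osimertinib, at -1.35.

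Some members varied strongly between libraries of the same condition. With Sample 3a left out, and among genes with a mean of at least 10 CPM, 6 of 29 members had a range over 3-fold within a condition on the CPM + 2 scale, against 9.88% of 9424 genes. These were MSMO1, the sterol C4 methyl oxidase (10.8-fold), HMGCS1 (9.91-fold), SCD (4.57-fold), MVK (4.29-fold), SREBF2 (4.21-fold), and FADS2 (3.24-fold). With 3a kept in there were 8 of 29 members, against 12.9% of 9453 genes, where FASN (3.89-fold) and ACACA (3.04-fold) joined them and SREBF2 ranged 26.7-fold. MSMO1 illustrates it, at 2.66, 17.6, and 48.4 CPM in Samples 4a to 4c. With such scatter, its interval for osimertinib against vehicle ran from -1.75 to 1.46 on the log2 scale. A sizeable change in either direction was thus not excluded with 3 libraries per condition. At the other end, FDPS and NSDHL, enzymes of the mevalonate and sterol arms, varied little, and their log2 fold changes between the lines had 95% intervals of -0.29 to 0.22 and -0.35 to 0.24.

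A few members followed the replicate letter in treated H1975–OR. LSS was at 155.8 to 187.4 CPM in Samples 3a, 4a, and 5a and at 69.1 to 82.2 CPM in the b and c libraries of the same treatments. SCAP was at 70.1 to 110.4 CPM against 26.5 to 46.2 CPM, ACLY at 327.6 to 360.8 CPM against 207.1 to 250.04 CPM, and ACACA at 163.2 to 249.3 CPM against 80.7 to 125.3 CPM. For these 4 genes letter a was above letters b and c whatever the agent. In vehicle-treated H1975–OR, Sample 2a was also the highest library of its condition for each of them. It was at 106.9 CPM for LSS, 53.7 CPM for SCAP, 286.9 CPM for ACLY, and 218.4 CPM for ACACA. The next highest vehicle libraries were at 92.5, 38.9, 272.8, and 138.2 CPM. NKX2-1 split the other way, at 33.1 to 35.4 CPM in the 3 letter a libraries and 55.4 to 98.9 CPM in the others, and its link to these genes was not tested. Letter a lay above in 4 of 31 members and below in 0, against 6.92% above and 8.79% below among 9424 genes with a mean of at least 10 CPM. With the letters b and c alone, as chosen after seeing the data, the count of members that passed was 8 between the lines, against 23.3% of all genes, and 0 in each of the other comparisons, against 2.32% or less.

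**Figure D5:**
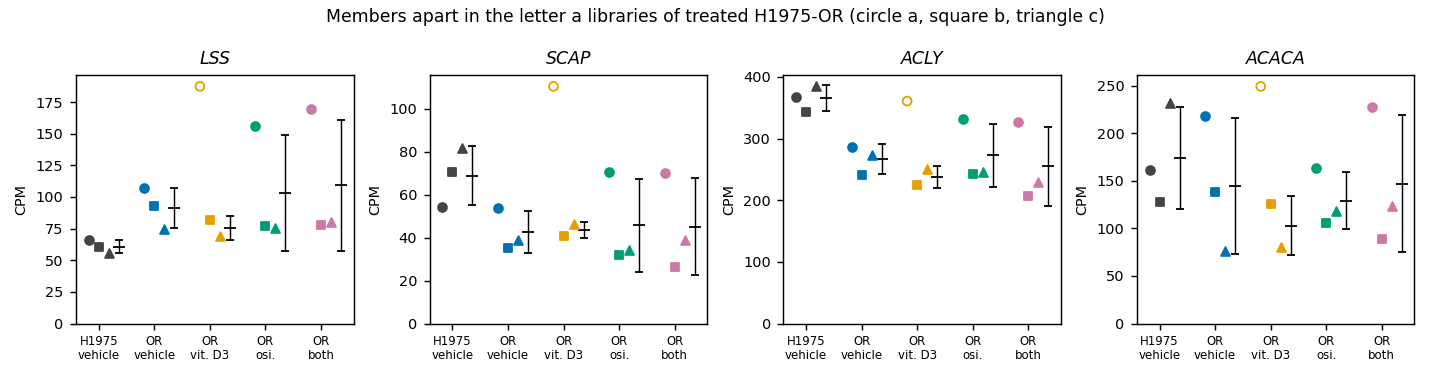
Points give CPM of LSS, SCAP, ACLY, and ACACA in every library by condition, on linear axes from 0, with circles, squares, and triangles for letters a, b, and c, the open circle for Sample 3a, and bars for the mean ± SD without it (n = 3, or 2 with 1,25(OH)2D3). In the 3 treated H1975–OR conditions the circle stood above the square and the triangle for each gene, as for LSS with 155.8 to 187.4 CPM against 69.1 to 82.2 CPM.

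Several members share exons with other annotated genes, and whether the estimated counts used strand is not given in the sources used here. In GENCODE release 44, 68.2% of the merged exon length of CYP51A1 and 36.4% of that of EBP are shared with a further gene on the same strand, so that their values are uncertain. On the opposite strand, the shared part is 37.7% for HMGCS1, 18.6% for FDPS, 17.2% for ACAT2 (with TCP1), 15% for IDI1, 9.1% for SREBF2, 6.8% for SREBF1, and 6.2% for LSS, and without strand such reads cannot be told apart. FADS1 and FADS2 overlap by 490 bases on opposite strands, under 5% of the exons of each. FDPS has 8 pseudogenes named after it, IDI1 and CYP51A1 have 3 each, HSD17B7 has 2, and SCD has 1, and reads could be divided among such copies. SREBF1, SREBF2, SC5D, TM7SF2, ELOVL6, LSS, STARD4, INSIG1, and ACLY have none named after them.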

How the data were processed

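The deposited values are estimated counts per gene symbol, which the authors made from paired-end reads of stranded total RNA libraries (Ribo-Zero Gold, NextSeq500) with Kallisto against hg38 and summed with tximport. The submitters' processing notes name kallisto 0.43.0, STAR 2.5.2b, and CASAVA 1.8.2. The annotation and the tximport settings are not given in the sources used here, so a scaling for transcript length at that step cannot be told. Counts were rounded and analysed in R 4.3.3 with edgeR 4.0.16: filterByExpr (minimum count 10, minimum total 15), TMM, and the quasi-likelihood test with Benjamini-Hochberg adjustment over all genes, at a threshold of 0.05. One fit of 8 libraries (1a to 2c, 3b, 3c; 12513 genes) served H1975–OR against H1975 and 1,25(OH)2D3 against vehicle, and one of 11 libraries, all H1975–OR without 3a (12503 genes), the rest. Group was the only term. SE is the log2 fold change divided by the square root of the F statistic. Displayed CPM used TMM factors over all 15 libraries. Totals of 4378030 to 6140120 counts make 3 counts, the floor used, worth 0.476 to 0.707 CPM, for counting error only.

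Deviations from group means correlated between samples of the same letter at 0.31, 0.12, and 0.20 for osimertinib and vehicle, 0.46, 0.28, and 0.26 for both agents and osimertinib, and 0.34, 0.12, and 0.18 for both agents and vehicle. Letters were taken as pairs there only in the replicate block and in the letter-by-letter count. The main fits had no such term, so that their p-values leave this pairing out. Such a correlation was not found between the lines (0.02, -0.03, and 0.01) or, with 2 pairs, for 1,25(OH)2D3 alone (0.07 and 0.11). The members and lists were chosen with earlier results of these data known. Per-library values were given for members that passed in any comparison and for ACLY, FASN, SCD, SQLE, DHCR7, SREBF1, SREBF2, and INSIG1, and the rest by range, apart from members at an unadjusted p under 0.05 and HMGCS1, MVK, MSMO1, SCAP, and ACACA, chosen after their values were seen. Alternatives were RLE size factors, DESeq2 1.42.0, other filters, the replicate block, a fit with 3a, a single fit of 14 libraries without 3a, each library left out, and, added after seeing the data, letters b and c only and the range within a condition with 3a. The tests were tried on simulated data first. Motifs were searched in the 250 bases before RefSeq starts.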

Additional observations from a re-analysis of the deposited data

Results flagged for a closer look

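Sample 3a, which the main tests left out, was above the 14 other libraries for 5 members. The share of all genes with their highest level in Sample 3a is not given here. The count therefore cannot be read as particular to the members. LSS stood at 187.4 CPM there against 169.2 CPM in the next highest library, SREBF2 at 177.7 against 94.5 CPM, SCAP at 110.4 against 81.7 CPM, ACACA at 249.3 against 232.2 CPM, and FASN at 399.8 against 233.3 CPM. The gap was wide for SREBF2 and FASN and narrow for LSS and ACACA. Its part in the other results was not tested beyond the fits that kept it in.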

How the results depend on the processing

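Between the lines, 7 members passed, 5 to 8 under the other settings, and 3 to 7 with 1 library left out (3 without Sample 1c, 4 without 1b, 2b, or 2c). Under DESeq2, 1 member passed for 1,25(OH)2D3 against vehicle (0.991% of all genes), 1 for both agents against osimertinib (0.528%), and 1 for both agents against vehicle (2.91%). In those comparisons, and for osimertinib against vehicle and the difference of effects, no member passed under any other alternative run. With Sample 3a kept in, SREBF2 turned to 0.48 for 1,25(OH)2D3 against vehicle and to -0.82 for the difference of effects, and ACLY and LSS no longer passed between the lines (adjusted p = 0.149 and 0.285). Over all genes, DESeq2 called 124, 117, 66, and 364 where edgeR called 19 for 1,25(OH)2D3, 6 for osimertinib, 12 for both agents against osimertinib, and 62 for both agents against vehicle. The replicate block gave 35, 33, and 461 genes in the last 3 of these and 9 for 1,25(OH)2D3, and letters b and c only gave 80 for osimertinib and 285 for both agents against vehicle. Keeping 3a gave 1636 genes between the lines in place of 2521, 5 in place of 12, and 25 in place of 62. For 1,25(OH)2D3, no filter gave 32, and at least 10 counts in every library or all 14 libraries in one fit gave 29 each. That fit gave 12 for osimertinib and 98 for both agents against vehicle. Leaving out 1 library gave 1426 to 2835 genes between the lines, 5 to 18 for 1,25(OH)2D3, 1 to 29 for osimertinib, 3 to 9 for both agents against osimertinib, 4 to 110 for both agents against vehicle, and 0 to 1 for the difference of effects. With the replicate block, 6 members passed between the lines, against 17.2% of all genes. DHCR7 came under the threshold there (edgeR adjusted p = 0.0285) and INSIG1 and STARD4 did not (0.0546 and 0.0599), though the letters did not pair those samples. The block changed no other call of a member. The causes of these changes were not tested. With 2 or 3 libraries per condition, changes smaller than the scatter between libraries may have been missed, and the size of change that could be detected was not computed.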
